A study of Drosophila melanogaster with 36 samples.

Results

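The genes described here serve the optics and the light-absorbing pigment of the compound eye of *Drosophila melanogaster*. There are 7 of them, namely retinin, Crys, ninaB, ninaD, ninaG, santa-maria and Pdh. They were chosen by name for what they are known to do, with earlier results of these data known. All 7 were listed in each tissue's table, with 12842 genes listed for head, 12394 for fat body and 11311 for ovary (13154 over the 3 tables). Females had been reared as larvae on 100% SYA, a medium-quality sugar, yeast and agar food (M), or on 120% SYA, the high-quality version (H), and were kept on a shared food as adults. They were collected when 10% (RNA-1) or 60% (RNA-2) of the cohort was dead, so the time points were set by mortality and not by age in days. Each of the 36 libraries held 1 tissue from a pool of 11 or 12 females, with 3 libraries for each tissue, diet and time point. The fat body samples were abdomens from which gut and ovaries had been taken out, so they can hold other abdominal cells. No genetic strain, transgene or mutation is given in the labels.

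The cornea of each facet is a cuticular lens, and retinin and Crys (drosocrystallin) encode proteins of that lens, together with the cuticular proteins Cpr66D and Cpr72Ec. The opsins of the photoreceptors need a chromophore that the fly makes from dietary carotenoids. The class B scavenger receptors ninaD and santa-maria take carotenoids into cells, ninaB cleaves them into retinal, and ninaG encodes an oxidoreductase needed to form the hydroxylated retinal that fly opsins bind. The chromophore can also be recycled in the retinal pigment cells by the dehydrogenases Pdh and rdhB and the retinoid-binding protein pinta.

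In Ensembl's annotation of the BDGP6 genome, retinin lies on chromosome 3L at 16331933 to 16332789 on the plus strand and has 1 transcript of 798 bases in 2 exons. Pdh lies on the same arm at 16353233 to 16354297 on the minus strand, 20444 bases from retinin, with 4 transcripts of 913 to 945 bases. Crys (2L, 11944129 to 11947131, plus strand), ninaD (2L, 18081628 to 18083608, plus strand) and santa-maria (2L, 7445355 to 7451244, minus strand) share an arm. ninaB (3R, 13700565 to 13703164, plus strand) and ninaG (3R, 11419376 to 11421693, minus strand) share another. Exons of ninaB overlap those of Adgf-D and f-cup on the opposite strand, santa-maria overlaps CG5973, and Pdh overlaps Tcs3 and the antisense RNA CR45894. The library kit marks strand, but no source used here says whether the counting used it, so reads of these overlapping pairs may have been mixed.

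The values are estimated counts per gene that the authors normalized between libraries, here called normalized counts. They summed to between 56411248 and 70637997 per head library, and the depth estimated from the step between low values was 35000000 to 106000000 counts. The 30 photoreceptor genes used as a check were all present in every group of heads, with summed levels of 2934110 to 3646340 at RNA-1 and of 887913 to 1235470 at RNA-2. In M heads at RNA-1, replicates 1 and 3 had fewer counts from long transcripts (correlation of a gene's deviation with its log2 length, across genes, -0.39 and -0.48, against 0.01 to 0.21 in the other 10 libraries). For many results that rest on M at RNA-1, values without them are therefore also given. A change is RNA-2 against RNA-1 on the log2(value + 1) scale, tested with limma, and was called where the p adjusted after Benjamini and Hochberg lay under 0.05. The adjustment ran over the 11197 head genes that reached 10 normalized counts in 3 or more libraries. All 7 genes passed that filter in head.

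In heads, 6 of the 7 genes fell with age in M females and 4 of the 7 fell in H females, and none rose. Over all genes tested, 16.1% were called lower in M and 8.56% in H. As the 7 genes were chosen with earlier results of these data known, their counts beside these shares are descriptions. The median change of the 7 was -0.96 in M and -0.94 in H, beside 0.02 and -0.01 over all genes tested. The RNA-2 libraries all lay below the RNA-1 libraries for 6 genes in M and 4 in H, a pattern seen for 21.3% and 21.5% of genes tested. The called falls in M ranged from 10.3-fold in retinin to 1.36-fold in santa-maria. Those in H ranged from 5.41-fold in retinin to 1.23-fold in ninaB. In RNA from whole heads, fewer eye cells, less of a transcript per eye cell and changes in other head cells cannot be told apart.

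**Figure D1:**
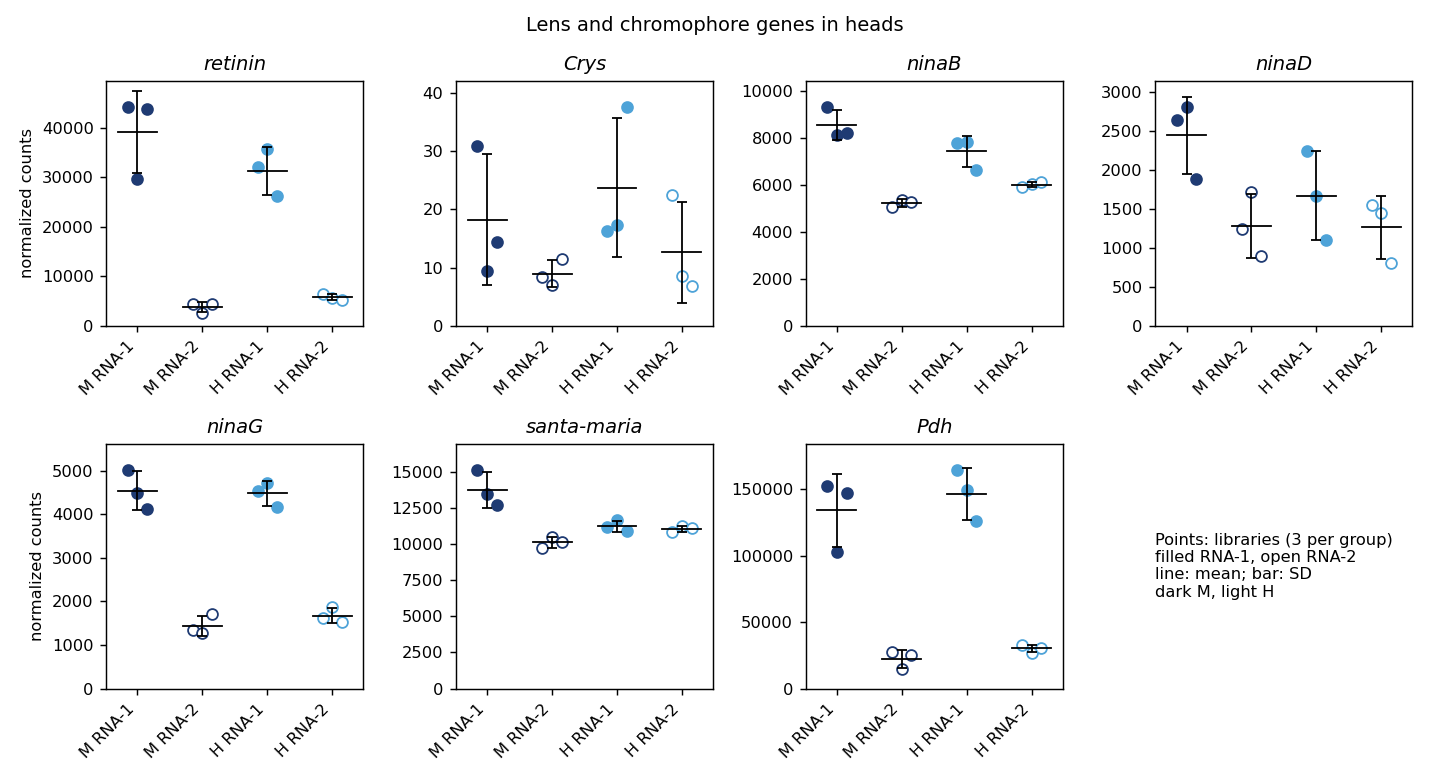
Normalized counts of the 7 genes in each of the 12 head libraries, by larval diet and time point. Points are libraries, horizontal lines are means and bars are SD (n = 3); every axis starts at 0. The retinin, Pdh and ninaG points at RNA-2 sit far below those at RNA-1 in both diets, and the H points of santa-maria overlap.

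The lens gene retinin had 44129, 29595 and 43711 normalized counts in the M libraries at RNA-1 and 4415, 2548 and 4418 at RNA-2. In H it had 32044, 35679 and 26149 at RNA-1 and 6422, 5634 and 5293 at RNA-2. Every RNA-1 library of either diet was thus above every RNA-2 library of either diet. The level at RNA-2 was 9.69% of that at RNA-1 in M (log2 change -3.39, standard error 0.22, limma adjusted p = 8.06e-06) and 18.5% in H (-2.43, standard error 0.22, limma adjusted p = 3.12e-05). By level, retinin ranked 210 to 289 in the head table in the younger M libraries and 2695 to 4067 in the older ones. In H it ranked 250 to 346 and then 1877 to 2301.

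Crys, the other lens gene among the 7, was close to the limit of detection in heads. Its M libraries had 30.9, 9.38 and 14.4 normalized counts at RNA-1 and 8.37, 7.07 and 11.5 at RNA-2. Its H libraries had 16.3, 17.4 and 37.5 at RNA-1 and 22.5, 8.50 and 6.83 at RNA-2. The groups overlapped in both diets. Its change of -0.81 in M and -0.94 in H had a standard error of 0.55 and did not pass the test (limma adjusted p = 0.27 and 0.29), and the 95% interval in M ran from -2.02 to 0.40.

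The other lens proteins were lower at RNA-2 as well, so that 3 of the 4 lens genes listed fell in each diet. Cpr72Ec had 443 ± 367 normalized counts at RNA-1 and 33.5 ± 18.5 at RNA-2 in M (mean ± SD, n = 3), and 1862 ± 742 and 85.7 ± 101 in H. On the log2 scale its change was -3.52 in M and -5.04 in H (standard error 0.84, limma adjusted p = 0.0122 and 0.00172). Cpr66D fell too, with means of 170 ± 22.9 and 103 ± 30.4 in M and 251 ± 10.7 and 105 ± 13.6 in H (log2 change -0.75 and -1.26). The median change of the 4 lens genes was -2.10 in M and -1.84 in H. Without M replicates 1 and 3 at RNA-1, retinin was the only lens gene called in M, with Cpr72Ec at -2.38 and Cpr66D at -0.59 (limma adjusted p = 0.266 and 0.237).

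Of the genes of chromophore supply, santa-maria had the smallest change in each diet. This uptake receptor had 15127, 13478 and 12686 normalized counts in M at RNA-1 and 9703, 10480 and 10163 at RNA-2, with no overlap. In H it had 11152, 11631 and 10887 at RNA-1 and 10855, 11260 and 11089 at RNA-2, all within the same range. Its log2 change in M was -0.44 (standard error 0.08, limma adjusted p = 0.00247). In H the change was -0.02 with a 95% interval of -0.19 to 0.15 (limma adjusted p = 0.909).

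Division by library totals, which moved the all-gene median in M to 0.29 from 0.02, took the M change of santa-maria to -0.17 (limma adjusted p = 0.0787) and that in H to 0.15. This was the only alternative of 23 in which its call in M was lost.

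The second receptor, ninaD, had 2647, 2810 and 1890 normalized counts in M at RNA-1 and 1241, 1718 and 900 at RNA-2. The M groups did not overlap, and the change was -0.96 (standard error 0.32, limma adjusted p = 0.0432). In H it had 2244, 1675 and 1105 at RNA-1 and 1548, 1453 and 806 at RNA-2, which overlap (-0.40, limma adjusted p = 0.467). The call in M was lost in 12 of 23 alternatives, among them leaving out any of the 3 M libraries at RNA-1, where the adjusted p lay between 0.059 and 0.126, and M replicates 1 or 3 at RNA-2 (0.0915 and 0.147).

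The carotenoid-cleaving enzyme ninaB had 9296, 8134 and 8206 normalized counts in M at RNA-1 and 5060, 5350 and 5266 at RNA-2. In H it had 7788, 7818 and 6648 at RNA-1 and 5918, 6016 and 6097 at RNA-2. The RNA-2 libraries were lower without overlap in both diets, by a smaller margin in H. The log2 change was -0.71 in M (standard error 0.08, limma adjusted p = 0.000204) and -0.30 in H (standard error 0.08, limma adjusted p = 0.0275).

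The H call of ninaB was held in 16 of 23 alternatives. It was lost on division by library totals (log2 change -0.13, limma adjusted p = 0.229) and when either of H replicates 1 and 2 at RNA-1 or any H library at RNA-2 was left out, with adjusted p between 0.071 and 0.114. With the replicate number as a block its adjusted p was 0.121. The M call was held in all 23.

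The oxidoreductase ninaG had 5017, 4485 and 4125 normalized counts in M at RNA-1 and 1337, 1283 and 1711 at RNA-2. In H it had 4545, 4723 and 4168 at RNA-1 and 1631, 1878 and 1522 at RNA-2. The highest of the 6 RNA-2 libraries had 1878 and the lowest of the 6 RNA-1 libraries 4125. Its log2 change was -1.66 in M and -1.42 in H (standard error 0.12 in each, limma adjusted p = 1.67e-05 and 2.06e-05).

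Pdh, which acts in recycling, was the most abundant of the 7. It had 152599, 102673 and 147137 normalized counts in M at RNA-1 and 27366, 14791 and 25131 at RNA-2. In H it had 164299, 148943 and 125701 at RNA-1 and 32539, 27054 and 30825 at RNA-2. The 2 time points were far apart in both diets, and within M replicate 2 was the lowest library at each time point for Pdh as for retinin. The level at RNA-2 was 16.7% of that at RNA-1 in M (log2 change -2.61, standard error 0.22, limma adjusted p = 2.68e-05) and 20.6% in H (-2.27, limma adjusted p = 4.61e-05). Pdh ranked 27 to 43 in the younger and 325 to 689 in the older M libraries, and in H it ranked 21 to 30 and then 269 to 330.

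The other recycling genes fell as well. The dehydrogenase rdhB had 11322 ± 1437 normalized counts at RNA-1 and 2928 ± 483 at RNA-2 in M (mean ± SD, n = 3), and 9298 ± 1123 and 3631 ± 45.2 in H, with log2 changes of -1.96 and -1.35. The retinoid-binding gene pinta had log2 changes of -0.79 in M and -0.50 in H (standard error 0.08, limma adjusted p = 0.000103 and 0.00162). With these, all 7 genes of the chromophore list fell in M and 5 of 7 fell in H, and santa-maria and ninaD were those not called in H. The median change of that list in M was -0.96, and -1.18 without M replicates 1 and 3 at RNA-1.

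**Figure D2:**
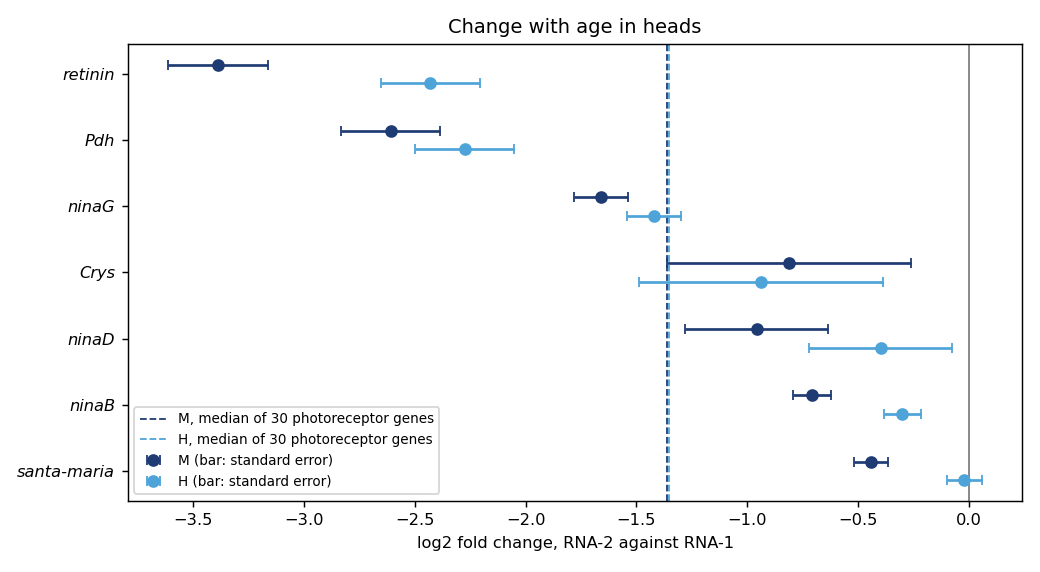
Log2 change from RNA-1 to RNA-2 in heads for each gene, in M (dark) and H (light), with its standard error. Dashed lines are the median change of 30 photoreceptor genes, -1.36 in M and -1.35 in H: retinin and Pdh lie below them, and ninaB and santa-maria above.

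The calls of retinin, Pdh and ninaG in both diets were held in all 23 alternatives. Over these, the change of retinin lay between -3.58 and -3.01 in M and between -2.55 and -2.26 in H. That of Pdh lay between -2.79 and -2.24 in M and between -2.44 and -2.10 in H, and that of ninaG between -1.79 and -1.39 and between -1.51 and -1.25. M replicates 1 and 3 at RNA-1, which had fewer counts from long transcripts, were also left out together. In that fit the M change was -3.01 for retinin, -2.24 for Pdh, -1.65 for ninaG and -0.64 for ninaB. It was -0.41 for santa-maria, -1.18 for ninaD (standard error 0.52) and -0.08 for Crys. That fit leaves 1 M library at RNA-1, which is assumed to vary like the others.

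Photoreceptor transcripts fell with age too, and how the 7 genes moved beside them was tested by subtracting each library's median log2 level of the 30 photoreceptor genes. That median lay between 14.54 and 14.91 in the RNA-1 libraries and between 13.17 and 13.64 in the RNA-2 libraries. Against it retinin and Pdh still fell. Relative to the photoreceptor genes, retinin changed by -2.01 in M (standard error 0.21, limma adjusted p = 3.43e-08) and by -1.08 in H (adjusted p = 7.9e-05), and Pdh by -1.23 and -0.93 (adjusted p = 5.52e-05 and 0.000949). Only 0.464% of all genes tested in M and 0.402% in H were called lower on this scale. In M at RNA-1 the relative level of retinin was 0.07 in replicate 2, and 0.73 and 0.87 in replicates 1 and 3. That of Pdh was 1.87, and 2.52 and 2.62. The M libraries at RNA-2 lay between -1.85 and -1.08 for retinin and between 0.68 and 1.55 for Pdh. The relative fit was not run without M replicates 1 and 3 at RNA-1, which had fewer counts from long transcripts.

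For ninaG no relative change was called, -0.28 in M and -0.07 in H (standard error 0.14, limma adjusted p = 0.0675 and 0.617). The relative level of ninaB was higher at RNA-2, by 0.67 in M and 1.05 in H, as was that of santa-maria, by 0.94 and 1.33 (limma adjusted p between 1.55e-07 and 0.000474). That of ninaD was called higher in H (0.95, limma adjusted p = 0.0238) but not in M (0.42, limma adjusted p = 0.259). On this scale 92.4% of all genes in M and 91.3% in H were called higher, so these shifts were those of most head genes. With the median of 8 neuron genes in place of the photoreceptor median, the relative changes of ninaB were -1.39 in M and -0.12 in H and those of santa-maria -1.13 in M and 0.16 in H. The median change of those 8 genes was 0.62 in M and, without M replicates 1 and 3 at RNA-1, -0.08.

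**Figure D3:**
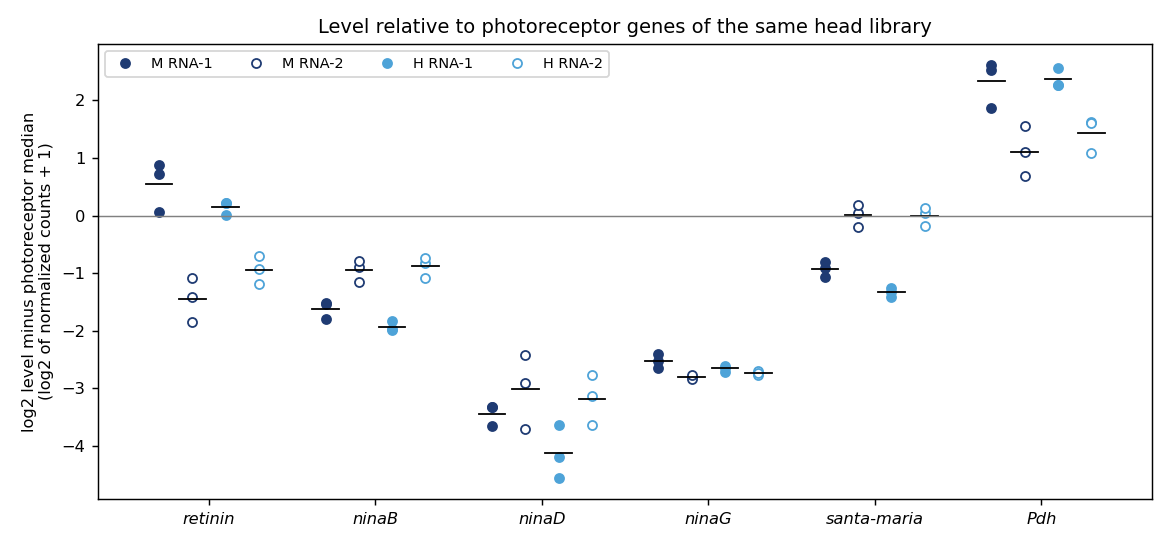
Log2 level of 6 genes minus the median log2 level of 30 photoreceptor genes in the same head library, with group means as lines (Crys, near -10, is left out). retinin goes from between 0.01 and 0.87 at RNA-1 to between -1.85 and -0.71 at RNA-2, ninaG stays between -2.84 and -2.40, and santa-maria goes from between -1.41 and -0.81 to between -0.20 and 0.19.

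Per kilobase of a gene's median transcript length, which allows genes to be compared, Pdh stood above retinin and retinin above the rest in all 4 groups of heads. In M at RNA-1 the mean levels were 144100 normalized counts per kilobase for Pdh, 49050 for retinin, 3949 for ninaB, 3500 for santa-maria, 2375 for ninaG, 1596 for ninaD and 8.79 for Crys. The ranges of ninaB (3759 to 4296) and santa-maria (3226 to 3847) overlapped, and all other neighbours were apart. At RNA-2 in M, retinin had come down to 4754, near santa-maria at 2572 and ninaB at 2415, which again overlapped, and ninaD (586 to 1120) and ninaG (671 to 894) could no longer be ordered. In H the order was the same at RNA-1, with ninaB (3072 to 3613) above santa-maria (2768 to 2958), and at RNA-2 both these pairs overlapped. The place of santa-maria depends on its transcript length, which runs from 2302 to 5563 bases. Its H mean at RNA-1 would be 4875 per kilobase at the shortest and 2017 at the longest, above and below that of ninaB.

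Libraries of the same group showed how closely these genes moved together. Over the 12 head libraries retinin and Pdh had a correlation of 0.99, and one of 0.94 after group means were taken out, whereas retinin and ninaG had 0.98 and 0.46. For ninaB and santa-maria the values were 0.89 and 0.76. These libraries share the age difference and the pools, and the values are descriptions. The ratio of Pdh to retinin counts was 3.37 to 3.47 in M at RNA-1, 5.69 to 6.20 in M at RNA-2, 4.17 to 5.13 in H at RNA-1 and 4.80 to 5.82 in H at RNA-2, so the M libraries at RNA-1 were the lowest 3.

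The genes most like each of the 7 were taken by Pearson's correlation of log2 levels over the 12 head libraries, among 9383 genes with a mean of at least 100. For retinin they were se, which acts in the synthesis of the red eye pigment (0.992), Pdh (0.991) and the lysyl oxidase gene Loxl2 (0.990), out of 409 genes above 0.9. For Pdh they were the odorant-binding protein gene Obp8a (0.993), se (0.992) and CG34134 (0.991). Those of ninaG were photoreceptor genes, namely the opsin Rh5 (0.998), inaF-B (0.996) and the arrestin Arr1 (0.996). For ninaB they were the glutamine synthetase Gs2 (0.981), bdl (0.977) and CG5281 (0.976). The other genes had looser partners, led by Pcyt2 for santa-maria (0.953), Uck for ninaD (0.902) and Prip for Crys (0.832).

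Larval diet made no called difference in heads in any of the 7 genes, either at a time point or in how they changed with age. The difference of age changes, H minus M, was 0.96 for retinin (standard error 0.32, limma adjusted p = 0.209), 0.42 for santa-maria (standard error 0.11, limma adjusted p = 0.141) and 0.41 for ninaB (standard error 0.12, limma adjusted p = 0.175). Of all genes tested, 0.152% were called. At an unadjusted p under 0.05 these 3 of the 7 passed, as did 18.1% of all genes. The other 4 differences ran from -0.13 for Crys to 0.56 for ninaD.

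The 3 differences were called when M replicate 2 at RNA-1 was left out (limma adjusted p = 0.0175 for retinin, 0.0105 for santa-maria and 0.0128 for ninaB), which leaves at that point only the 2 libraries with fewer counts from long transcripts. In that fit 32.2% of all genes were called. Without those other 2 libraries the values were 0.58, 0.40 and 0.34, and none was called (limma adjusted p = 0.862, 0.24 and 0.481). With the trend on transcript length removed they were 0.79 for retinin, 0.75 for santa-maria and 0.47 for ninaB, and none was called (limma adjusted p = 0.186, 0.0632 and 0.0726, beside 1.29% of all genes called).

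At RNA-1, santa-maria was lower in H than in M by 0.29 on the log2 scale, with 10887 to 11631 normalized counts in H against 12686 to 15127 in M, but was not called (standard error 0.08, limma adjusted p = 0.068, beside 3.39% of all genes called). It passed with quantile normalization (adjusted p = 0.0387), without M replicate 2 (0.00998, with 42.0% of all genes called) and with the trend on transcript length removed (-0.60, adjusted p = 0.0205, with 5.40% called). Without M replicates 1 and 3 it did not (-0.26, adjusted p = 0.294), and its adjusted p over the 23 alternatives ran from 0.00998 to 0.34. At RNA-2 the H level of retinin was 0.65 above M on the log2 scale, with 5293 to 6422 against 2548 to 4418 normalized counts and no overlap. It was not called either (unadjusted p = 0.0143, limma adjusted p = 0.662), and 0.196% of all genes were called there.

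Genes near these pathways moved unequally in heads. Over all genes tested, 16.1% were called lower and 15.8% higher in M, and 8.56% lower and 11.0% higher in H. Of 7 eye pigment genes, 6 fell in M, and 4 fell and 1 rose in H. Without M replicates 1 and 3 at RNA-1, 4 fell in M. The largest falls were in se, with 3956 ± 1008 normalized counts at RNA-1 and 409 ± 134 at RNA-2 in M (log2 change -3.29), and 3567 ± 452 and 466 ± 103 in H (-2.95). The pigment transporter genes st and bw had log2 changes of -1.62 and -1.16 in M and -1.42 and -0.53 in H. In H the kynurenine monooxygenase gene cn fell more than either (-1.75, limma adjusted p = 0.0203), whereas in M it was not called (-0.46).

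Among 5 genes of lipoprotein transport, which carries carotenoids in the blood of insects, apolpp, the precursor of the main lipoprotein, had log2 changes of -0.61 in M and -0.75 in H, both called. At RNA-1 it was higher in H, with 637620 to 735670 normalized counts against 445430 to 501450 in M (log2 difference 0.54, standard error 0.09, limma adjusted p = 0.0201). Without M replicates 1 and 3 at RNA-1 the difference was 0.55 and was not called (limma adjusted p = 0.206). The lipoprotein receptors LpR1 and LpR2 rose in M by 0.48 and 0.70, where 15.8% of all genes were called higher, and were not called in H. Without those 2 libraries neither was called in M (0.16 and 0.49, limma adjusted p = 0.512 and 0.466). Apart from ninaD and santa-maria, 11 of 14 class B scavenger receptors listed passed the filter. Of these 4 fell and 1 rose in M, and 2 fell and 1 rose in H, beside 15.8% and 11.0% of all genes called higher. CG2736 (-1.08 and -0.38) and CG3829 (-0.59 and -0.43) were lower in both diets. These 2 were the only ones of the 11 called in M without M replicates 1 and 3 at RNA-1.

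Transcripts of other head tissues moved at the same time. The fat body list had 6 of 9 genes lower in M and 4 of 9 lower in H. Its summed level in M was 8613000 to 11251600 normalized counts in younger and 1780560 to 2073110 in older females. Its median change in M was -1.28, and -1.05 without M replicates 1 and 3 at RNA-1. The median change of 8 neuron genes was -0.19 in H, beside the M values above. The median change of 6 glia genes was -0.13 in M and 0.05 in H. The part of these shifts in the levels of the 7 genes was not tested.

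Outside the head, ninaD and santa-maria were the only members of the group with more than 1000 normalized counts. In fat body samples ninaD had a mean of 2880 over 12 libraries and santa-maria 4253, whereas ninaB, ninaG, Crys and retinin had means of 15.1 to 26.2 and Pdh 121. In ovaries the 7 means lay between 1.01 and 40.7, and 3 genes passed the filter. The tables were normalized separately by tissue, so levels between tissues are set side by side and were not tested.

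**Figure D4:**
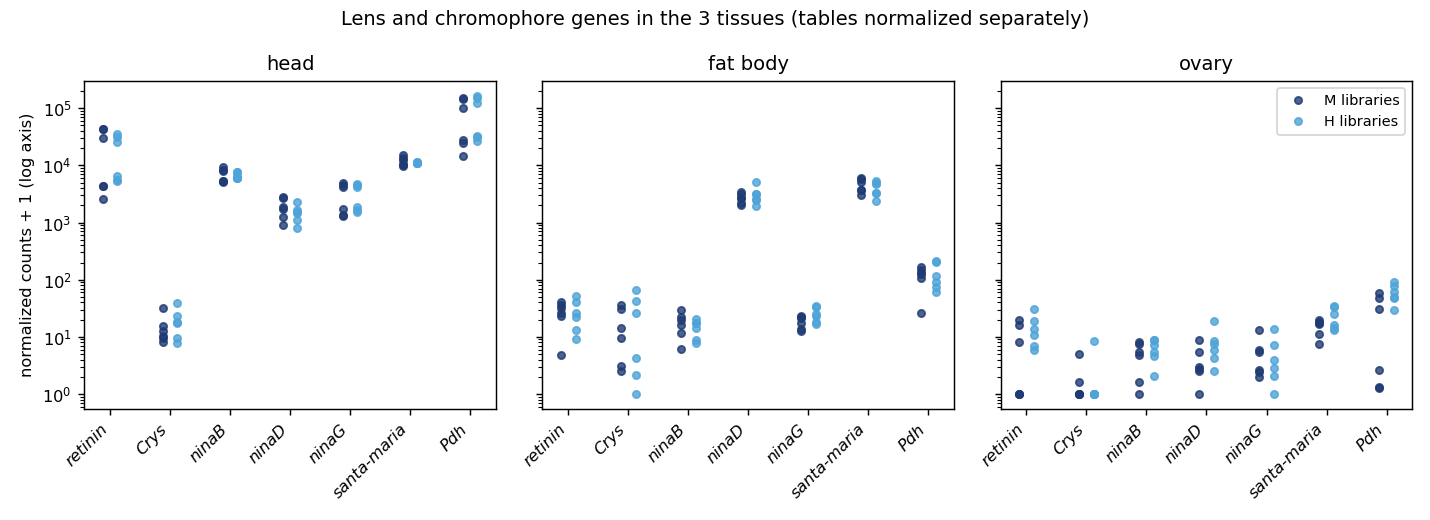
Normalized counts + 1 of the 7 genes in all libraries of head, fat body and ovary, on a log axis, with M dark and H light (12 libraries in each tissue). In fat body the 2 receptor genes ninaD and santa-maria reach down to 1967 and the others up to 212, and in ovary the highest point of all is Pdh at 91.4.

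In fat body samples, santa-maria rose with age in both diets. It had 3069, 3662 and 3745 normalized counts in M at RNA-1 and 5994, 5708 and 5029 at RNA-2, and 2391, 3224 and 3301 in H at RNA-1 and 4659, 5370 and 4884 at RNA-2. The groups did not overlap in either diet. Its log2 change was 0.68 in M (standard error 0.13, limma adjusted p = 0.0101) and 0.75 in H (limma adjusted p = 0.00445), where 8.52% and 6.55% of all genes tested were called higher.

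The other receptor, ninaD, had 1967 to 5028 normalized counts over the 12 fat body libraries and did not pass the test in M (-0.08, limma adjusted p = 0.883) or H (0.44, limma adjusted p = 0.325). Division by library totals gave 0.76 in H (limma adjusted p = 0.0488), where the all-gene median went to 0.37 from 0.05.

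Crys, though low, was called higher in H fat body, with 3.21, 0 and 1.16 normalized counts at RNA-1 and 42.1, 25.3 and 64.5 at RNA-2. The M libraries, with 13.2, 2.12 and 30.1 at RNA-1 and 8.63, 34.7 and 1.55 at RNA-2, spanned nearly the same range at both times. The H change was 4.33 on the log2(value + 1) scale (standard error 1.06, limma adjusted p = 0.0209). It was not called when H replicate 2 or 4 at RNA-1 or H replicate 1 or 3 at RNA-2 was left out (adjusted p = 0.0698, 0.064, 0.0684 and 0.0801), and the difference of the 2 diets' changes was not called (4.55, limma adjusted p = 0.127).

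The low levels of retinin and Pdh in fat body and ovary samples were set beside those of ninaE, the main opsin of the photoreceptors. The lowest fat body library, M replicate 3 at RNA-2, had 145 normalized counts of ninaE, 24.6 of Pdh and 3.74 of retinin, and the other 11 had 517 to 2502, 60.6 to 212 and 8.14 to 50.9. Ovary samples of M had 642 to 877 of ninaE, 30.3 to 57.8 of Pdh and 7.16 to 18.7 of retinin at RNA-1. At RNA-2 they had 1.72 to 166 of ninaE and 0.29 to 1.60 of Pdh, and retinin was listed at 0 in all 3. In H ovaries the 3 genes did not keep one order, and the library with the most ninaE at RNA-2 (867, replicate 3) had the least retinin (4.93).

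Pdh was called lower in M ovaries at RNA-2 (log2 change -4.76, standard error 0.44, limma adjusted p = 0.000342), and so was retinin (limma adjusted p = 0.0031), for which no fold is given. Of all genes tested, 10.6% were called lower. Both calls were held without M replicates 1 and 3 at RNA-2 (adjusted p = 0.0212 and 0.0463), an alternative chosen after the data were seen that leaves 1 M library at RNA-2, assumed to vary like the others. Between the diets at RNA-2, Pdh was called higher in H than in M ovaries (log2 difference 4.74, standard error 0.44, limma adjusted p = 0.00111). Its H libraries there had 28.0, 47.5 and 59.8 normalized counts, and the size of the difference depends on the added 1 as well. The difference in retinin was not called (limma adjusted p = 0.179), and the share of all genes called in that comparison was not counted. The part of eye RNA in the ovary and fat body values was not tested.

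**Figure D5:**
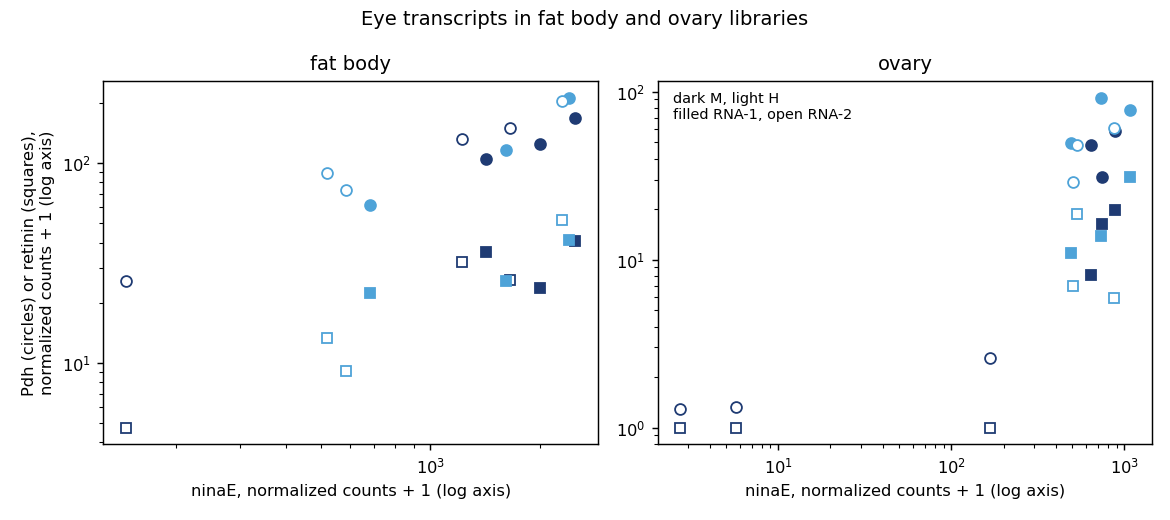
Pdh (circles) and retinin (squares) against ninaE in fat body and ovary libraries, as normalized counts + 1 on log axes, with M dark, H light, RNA-1 filled and RNA-2 open. The 3 M ovary libraries at RNA-2 lie apart at the lower left, and among the other ovary libraries the order of ninaE is not that of Pdh or retinin.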

How the data were processed

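Messenger RNA of 3 tissues was measured in 36 libraries. The deposited signal values are counts per gene. The authors estimated them with kallisto 0.46.1 against BDGP6 transcripts and scaled them with DESeq2 1.28.1. The log2 fold changes, p-values and test statistic (a score) that the authors deposited beside them hold the authors' own comparisons of RNA-2 with RNA-1 and were not used. Whole reads could not be recovered, so no count model was fitted. Gene symbols came from an annotation table, and 82 to 85 identifiers per table had none.

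Groups came from the labels. Genes that reached 10 normalized counts in 3 or more of the 12 libraries of a tissue entered the test, and log2(value + 1) was modelled with limma 3.58.1 in R 4.3.3, with a variance trend and robust variances, in 1 model of 4 groups per tissue (11197, 10850 and 9438 genes in head, fat body and ovaries). Calls used a Benjamini-Hochberg adjusted p under 0.05 over all genes of a comparison. The fit was checked on simulated data. The 7 genes, the gene lists and the comparisons were chosen with earlier results of these data known. Named genes were the 7, those of the lens, chromophore, eye pigment, lipoprotein and class B scavenger receptor lists, and the 3 most correlated with each of the 7. Genes with a protein like that of retinin were to be named as well, which was not analysed here.

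Alternatives were division by library totals, quantile normalization, no variance trend, other filters and pseudocounts, fits of a comparison's own libraries, a replicate block, subtraction of the transcript-length trend of each library (lowess with a span of 0.4), a neuron reference and leaving out libraries. Libraries are labelled as biological replicates. Same-numbered head libraries had correlations of -0.13 to 0.15 in their deviations from group means, so numbers were not used to pair them.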

Additional observations from a re-analysis of the deposited data

Results flagged for a closer look

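In M females santa-maria rose by 0.68 on the log2 scale in fat body samples, where all 3 libraries at RNA-2 lay above those at RNA-1, and fell by 0.44 in heads, where all 3 lay below. The difference between the tissues was not tested, since their tables were normalized separately.

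For 3 genes of the related lists, the RNA-2 head libraries all lay below the RNA-1 libraries in M and all above them in H. The share of all genes with this pattern was not counted. The eye pigment transporter gene w changed by -0.41 in M and 0.42 in H, a difference of 0.83 (limma interaction adjusted p = 0.082). Hn, which encodes phenylalanine hydroxylase, changed by -0.59 and 0.18, a difference of 0.77 (adjusted p = 0.082). Its change in H was not called (limma adjusted p = 0.319). The highest H library of Hn at RNA-1 and the lowest at RNA-2 both had 48235 normalized counts after rounding. The class B scavenger receptor gene dsb changed by -0.37 and 0.67, a difference of 1.04 (adjusted p = 0.116). Its change in M was not called (limma adjusted p = 0.12). None of the 3 differences passed the adjusted threshold. Without M replicates 1 and 3 at RNA-1, the M changes of w, Hn and dsb were -0.59, -0.42 and -0.17. The differences were then 1.01, 0.60 and 0.84, from a fit with 1 M library at RNA-1.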

How the results depend on the processing

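Of 704 values of the 7 genes under alternatives other than leaving out 1 library, 678 kept their direction and side of the threshold, 14 lost a call, 7 gained one and 5 reversed. Of 744 values with 1 library left out, 713 were kept, 24 lost a call, 7 gained one and none reversed. The reversed values were all relative changes with the neuron list median in place of the photoreceptor list, namely ninaB, ninaD and santa-maria in M (-1.39, -1.64 and -1.13) and ninaB and ninaD in H (-0.12 and -0.22). That reference called 1321 genes in M and 343 in H. Over all genes, age calls in H heads were 2185, and 1289 with the replicate block. Age calls in M heads were 3581, with 1688 from the comparison's libraries alone and 1149 without M replicates 1 and 3 at RNA-1. Division by library totals called 4604 genes higher and 606 lower in M heads and 2378 and 505 in H, against 1774 and 1807, and 1227 and 958. Diet calls at RNA-1 were 380, with 252 on division by totals, 215 without a variance trend, 56 with the block, 600 with the length trend removed, 3 from the comparison alone and 1 without M replicates 1 and 3. Diet calls at RNA-2 were 22, with 6 without a trend, 10 with the block, 34 with the length trend removed and 47 from the comparison alone. Interaction calls were 17, with 2 without a trend, 2 with the block, 143 with the length trend removed and 1 without M replicates 1 and 3. In H fat body, 1662 calls became 3708 on division by totals, 811 with the block and 1018 from the comparison alone. In M ovaries, 1924 became 964 from the comparison alone and 404 without M replicates 1 and 3 at RNA-2. The causes of these shifts in counts were not tested, beyond the fewer libraries in some fits. Leaving out 1 library gave 1644 to 5858 age calls in M heads, 1482 to 3073 in H heads, 3264 to 5917 for their mean, 0 to 3591 interaction calls, 10 to 4691 and 4 to 37 diet calls at RNA-1 and RNA-2, 755 to 1978 and 953 to 3194 in M and H fat body, and 936 to 1965 and 3486 to 4729 in M and H ovaries. The highest interaction and RNA-1 diet counts were without M replicate 2 at RNA-1. The replicate block lost the calls of ninaB in H heads and Crys in H fat body, and no other call of the 7 genes. Whole reads are unknown, so no counting interval is given for the low values of Crys.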
